A study of Mus musculus with 21 samples.

Results

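The genes described here are 10 immediate early genes: Dusp1, Dusp2, Dusp6, Zfp36, Btg2, Klf2, Klf6, Nr4a1, Ier2 and Ier5. They were chosen by name from the 54532 genes of a count table of 11 RNA-seq libraries, and 1 row matched each name. The RNA came from c-kit+ bone marrow cells of C57BL/6 mice, enriched after red cell lysis with magnetic beads against c-kit, the receptor for stem cell factor that marks blood progenitors. The labels give 4 genotypes: Asxl1-/-Jak2V617F in 3 libraries, Jak2V617F in 3 more, Asxl1-/- in 2 and WT in the last 3. Asxl1 encodes a chromatin regulator often mutated in myeloid disease, and Jak2V617F is the constitutively active Jak2 kinase of myeloproliferative neoplasms. The sources used here do not give the promoter or Cre line behind either allele, nor the age of the mice.

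Immediate early genes are transcribed soon after a cell meets a growth factor, a cytokine or stress, without new protein synthesis. Kinase cascades such as ERK and p38 modify transcription factors that already sit at their promoters, among them SRF, which binds the CArG box, and CREB, which binds the cAMP response element. Their transcripts are short-lived, and several of the proteins end the response: DUSP phosphatases remove the activating phosphates from MAP kinases, and Zfp36 speeds the decay of AU-rich mRNAs. Such genes are also known to respond when tissue is dissociated and cells are sorted.

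All 11 libraries held 16198011 to 19196283 counts, and all 10 genes passed the filter on low counts that left 16262 genes for testing. Asxl1 averaged 96.4 ± 3.61 CPM (library-scaled counts, with TMM factors) in Asxl1-/-Jak2V617F cells, 157 ± 34.4 in Jak2V617F cells, 93.0 ± 5.66 in Asxl1-/- cells and 162 ± 1.41 in WT cells (SD), so both groups labelled Asxl1-/- had less Asxl1 RNA, without losing it. Kit was at 219 to 338 CPM in every library. The Jak2V617F libraries stood apart from the rest on the first principal component, which held 51.5% of the variance: they lay at 98.5 to 105 and the other 8 between -47.3 and -17.8. Reads on Y-linked genes were present in 3 libraries, Jak2V617F replicate 2 and both Asxl1-/- replicates, so mice of both sexes were used and sex was uneven between genotypes. Replicates of a genotype differed by 7.75 to 33.1 times sampling noise, but no label states that each was a different mouse. The p-values therefore rest on the variation among these libraries, some of which may be technical. In these bulk samples, fewer cells of a type and less RNA per cell cannot be told apart.

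Promoter windows of 250 bases before the RefSeq start (GRCm38.p6, the same assembly as mm10) were matched for 9 of the 10 genes, all but Ier2. The windows below are those that held a palindromic cAMP response element or a CArG box (Dusp1, Btg2 and Zfp36), together with that of Klf2, the gene of largest change in Asxl1-/-Jak2V617F against Jak2V617F. Each runs 5′ to 3′ on the gene's own strand and ends at the base before the start. Capitals mark TGACGTCA (cAMP response element), a CArG box, TTCNNNGAA (STAT site) and GCGGGGGCG (EGR site).
Dusp1: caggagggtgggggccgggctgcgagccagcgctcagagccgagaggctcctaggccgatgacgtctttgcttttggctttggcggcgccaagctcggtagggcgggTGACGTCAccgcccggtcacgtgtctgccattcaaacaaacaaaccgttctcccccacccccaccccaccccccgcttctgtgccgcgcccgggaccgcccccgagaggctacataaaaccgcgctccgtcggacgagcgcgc
Btg2: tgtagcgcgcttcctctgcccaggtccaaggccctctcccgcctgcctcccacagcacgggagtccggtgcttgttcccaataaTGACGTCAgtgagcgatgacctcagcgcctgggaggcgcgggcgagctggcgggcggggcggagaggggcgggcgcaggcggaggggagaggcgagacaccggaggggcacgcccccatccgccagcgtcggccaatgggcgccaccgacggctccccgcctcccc
Zfp36: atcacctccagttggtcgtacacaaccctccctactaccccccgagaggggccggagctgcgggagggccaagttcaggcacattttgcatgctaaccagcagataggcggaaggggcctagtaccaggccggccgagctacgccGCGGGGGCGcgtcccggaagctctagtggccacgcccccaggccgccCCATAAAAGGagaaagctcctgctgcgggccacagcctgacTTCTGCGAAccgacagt
Klf2: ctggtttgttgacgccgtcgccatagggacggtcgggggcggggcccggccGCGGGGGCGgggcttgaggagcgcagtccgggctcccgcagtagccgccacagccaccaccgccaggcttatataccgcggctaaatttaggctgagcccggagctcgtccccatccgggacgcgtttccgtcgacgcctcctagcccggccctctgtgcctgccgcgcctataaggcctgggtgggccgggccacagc
These windows lie at chr17:26508473-26508722 (minus strand, Dusp1), chr1:134079156-134079405 (minus, Btg2), chr7:28379229-28379478 (minus, Zfp36) and chr8:72318812-72319061 (plus, Klf2).

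The cAMP response element began 143 bases before the start of Dusp1 and 166 before that of Btg2, and 1.55% of 32851 promoter windows of the same length held one on either strand. The shorter motif TGACG, which lies inside the full element, was in the windows of Dusp1, Btg2, Klf2 and Nr4a1 and in 17.8% of all windows. Zfp36 held a CArG box 58 bases before its start (1.47% of all windows), a STAT site 17 bases before it (7.02%) and an EGR site 105 bases before it (2.57%). EGR sites were also in the windows of Klf2, Dusp2 and Nr4a1. The ETS site CCGGAAGT (2.88% of all windows) and the TATA box TATAAA, searched on the gene's strand (7.59%), were in none of the 9 windows. These are letter matches in a fixed window, and factor binding was not examined. The RefSeq start of Zfp36 lies 1025 bases inside the gene's start in the deposited table, and that of Nr4a1 12577 bases inside.

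Loss of Asxl1 on the Jak2V617F background went with more RNA of most of these genes. In Asxl1-/-Jak2V617F against Jak2V617F cells 7 of the 10 rose, 1 fell (Ier5) and 2 did not pass the test (Btg2 and Nr4a1), at an adjusted p under 0.05 in edgeR's quasi-likelihood test. Changes were frequent in this comparison: 44.3% of all genes tested passed, 24.5% rose and 19.8% fell. The median log2 fold change was 1.48 over the 10 genes and -0.01 over all genes. The libraries of the 2 genotypes did not overlap for 8 of the 10, with 7 higher and 1 lower, against 28.4% higher, 25.5% lower and 53.9% in either direction among all genes. Dusp1, Dusp6, Zfp36, Klf2, Klf6 and Ier2 passed under all 13 alternative settings.

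**Figure D1:**
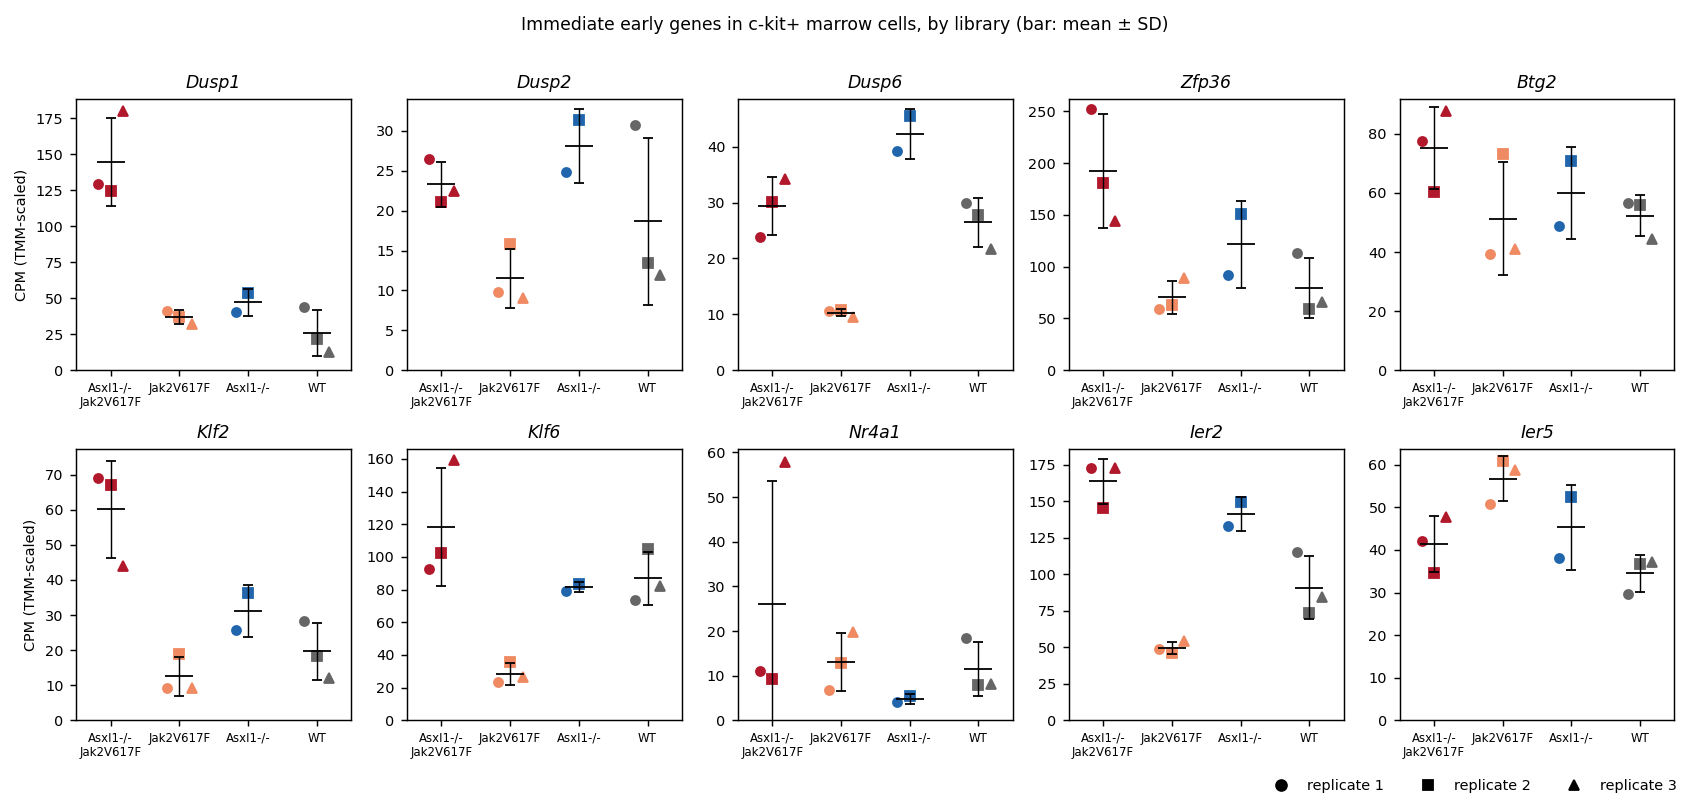
Level of each gene in every library, in TMM-scaled CPM on a linear axis from 0, with genotypes from left to right and marker shapes for replicates. Horizontal bars and whiskers are the mean and SD (n = 3, and n = 2 for Asxl1-/-). Dusp1 stood at 124 to 180 CPM in Asxl1-/-Jak2V617F cells and at most 53.8 CPM in any other library, while Dusp6 and Klf6 were lowest in the Jak2V617F cells.

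The DUSP phosphatases all rose in this comparison. Dusp1 (ENSMUSG00000024190, mm10 chromosome 17, 26505590 to 26508519, minus strand), a nuclear phosphatase of p38, JNK and ERK, had 129, 124 and 180 CPM in Asxl1-/-Jak2V617F libraries, against 41.3, 37.1 and 31.9 CPM in Jak2V617F libraries. Asxl1-/- libraries had 40.4 and 53.8 CPM and WT libraries 43.5, 21.9 and 12.3 CPM. All 3 Asxl1-/-Jak2V617F libraries thus lay above each of the other 8. The log2 fold change against Jak2V617F was 1.97 ± 0.39 (SE, adjusted p = 0.00304), a 3.93-fold higher level. Dusp6 (ENSMUSG00000019960, chromosome 10, 99263231 to 99267489, plus strand), a cytoplasmic phosphatase selective for ERK, had 23.8, 30.1 and 34.2 CPM in Asxl1-/-Jak2V617F libraries, against 10.5, 10.8 and 9.60 CPM in Jak2V617F libraries. It had 39.1 and 45.4 CPM in Asxl1-/- libraries and 30.0, 27.8 and 21.6 CPM in WT libraries. Dusp6 was thus low in Jak2V617F cells alone and highest in Asxl1-/- cells, and it rose by 1.51 ± 0.16 on the log2 scale (adjusted p = 1.86e-05). Dusp2 (ENSMUSG00000027368, chromosome 2, 127336159 to 127338376, plus strand), a nuclear phosphatase known from blood cells, had 26.5, 21.1 and 22.4 CPM in Asxl1-/-Jak2V617F libraries, against 9.82, 15.8 and 9.02 CPM in Jak2V617F libraries. In Asxl1-/- libraries it had 24.9 and 31.4 CPM and in WT libraries 30.8, 13.4 and 11.9 CPM, so WT replicate 1 lay within the Asxl1-/- range and above every Jak2V617F library, while the other WT libraries lay below every Asxl1-/- library. Its change of 1.01 ± 0.35 (adjusted p = 0.0383) held less firmly: it missed the threshold without any 1 of Asxl1-/-Jak2V617F replicates 1, 2 and 3 or Jak2V617F replicates 1 and 3, and with no filter, and its adjusted p ranged from 0.00811 to 0.124 over 13 alternatives.

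Both genes of mRNA decay were highest in Asxl1-/-Jak2V617F cells on average, and Zfp36 passed the test. Zfp36 (ENSMUSG00000044786, chromosome 7, 28376784 to 28380253, minus strand), or tristetraprolin, binds AU-rich elements and recruits the CCR4-NOT deadenylase. It had 252, 181 and 145 CPM in Asxl1-/-Jak2V617F libraries, against 58.9, 63.3 and 88.9 CPM in Jak2V617F libraries. Levels were 91.9 and 151 CPM in Asxl1-/- libraries and, in WT libraries, 113, 59.4 and 65.6 CPM. The genotypes with and without Asxl1 loss did not overlap on the Jak2V617F background, and the log2 fold change was 1.45 ± 0.32 (adjusted p = 0.00567). The antisense gene Gm44710 overlaps Zfp36, and it held 37 counts over all libraries, against 22445 for Zfp36. Btg2 (ENSMUSG00000020423, chromosome 1, 134075170 to 134079120, minus strand), an antiproliferative protein that binds the same deadenylase, had 77.6, 60.2 and 87.7 CPM in Asxl1-/-Jak2V617F libraries, against 39.4, 73.3 and 40.9 CPM in Jak2V617F libraries. Values of 48.9 and 70.9 CPM in Asxl1-/- libraries stood beside WT values of 56.7, 56.1 and 44.3 CPM, a narrow range across genotypes. Jak2V617F replicate 2, the library of that genotype with Y-linked reads, overlapped the Asxl1-/-Jak2V617F range. The Btg2 change was 0.55 ± 0.25 (adjusted p = 0.106), and it was 0.89 without that library (adjusted p = 0.00438, the range over 13 alternatives being 0.00437 to 0.296).

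The Krüppel-like factors had the largest fitted changes of the 10 in this comparison. Klf2 (ENSMUSG00000055148, chromosome 8, 72319033 to 72321656, plus strand), a zinc finger factor of lymphocyte quiescence and trafficking, had 69.1, 67.1 and 44.0 CPM in Asxl1-/-Jak2V617F libraries, against 9.23, 19.0 and 9.34 CPM in Jak2V617F libraries. Klf2 was at 25.8 and 36.3 CPM in Asxl1-/- libraries and, in WT libraries, at 28.3, 18.4 and 12.1 CPM. Every Asxl1-/-Jak2V617F library exceeded every other library, and the change against Jak2V617F was 2.26 ± 0.38 (4.78-fold, adjusted p = 0.00115). Klf6 (ENSMUSG00000000078, chromosome 13, 5861482 to 5870394, plus strand), a zinc finger factor expressed in many tissues, had 92.4, 103 and 159 CPM in Asxl1-/-Jak2V617F libraries, against 23.3, 36.0 and 26.2 CPM in Jak2V617F libraries. It had 79.2 and 83.6 CPM in Asxl1-/- libraries and 73.6, 105 and 82.2 CPM in WT libraries. The Jak2V617F libraries alone were low, and the change was 2.05 ± 0.23 (4.14-fold, adjusted p = 7.55e-05). Nr4a1 (ENSMUSG00000023034, chromosome 15, 101254269 to 101274795, plus strand), the orphan nuclear receptor Nur77, had 11.1, 9.21 and 57.8 CPM in Asxl1-/-Jak2V617F libraries, against 6.71, 12.9 and 19.7 CPM in Jak2V617F libraries. It was low in Asxl1-/- libraries, with 4.03 and 5.52 CPM, against WT libraries with 18.4, 7.95 and 8.08 CPM. One library, Asxl1-/-Jak2V617F replicate 3, set the mean of its group: the log2 fold change was 0.99 ± 0.74 (adjusted p = 0.318), and -0.37 without it.

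The Ier genes went in opposite directions. Ier2 (ENSMUSG00000053560, chromosome 8, 84661331 to 84662852, minus strand), a small nuclear protein induced by growth factors, had 173, 146 and 172 CPM in Asxl1-/-Jak2V617F libraries, against 48.7, 46.0 and 54.3 CPM in Jak2V617F libraries. In Asxl1-/- libraries Ier2 had 133 and 149 CPM and in WT libraries 115, 73.4 and 84.3 CPM. The genotypes lay in steps, with Jak2V617F lowest, WT above it, and both Asxl1-/- genotypes at the top overlapping each other. The change in Asxl1-/-Jak2V617F against Jak2V617F was 1.72 ± 0.15 (3.29-fold, adjusted p = 5.63e-06). Ier5 (ENSMUSG00000056708, chromosome 1, 155096361 to 155099636, minus strand), a protein of the same family known to act on the heat shock factor HSF1, had 42.0, 34.7 and 47.7 CPM in Asxl1-/-Jak2V617F libraries, against 50.7, 60.8 and 58.8 CPM in Jak2V617F libraries. Asxl1-/- libraries had 38.2 and 52.4 CPM and WT libraries 29.5, 36.8 and 37.1 CPM, so here the Jak2V617F cells were at the upper end. Ier5 fell by 0.45 ± 0.15 on the log2 scale (adjusted p = 0.0299). It missed the threshold without Asxl1-/-Jak2V617F replicate 1 or 2, without Jak2V617F replicate 2 or 3 and with a sex term, over a range of 0.0118 to 0.11.

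**Figure D2:**
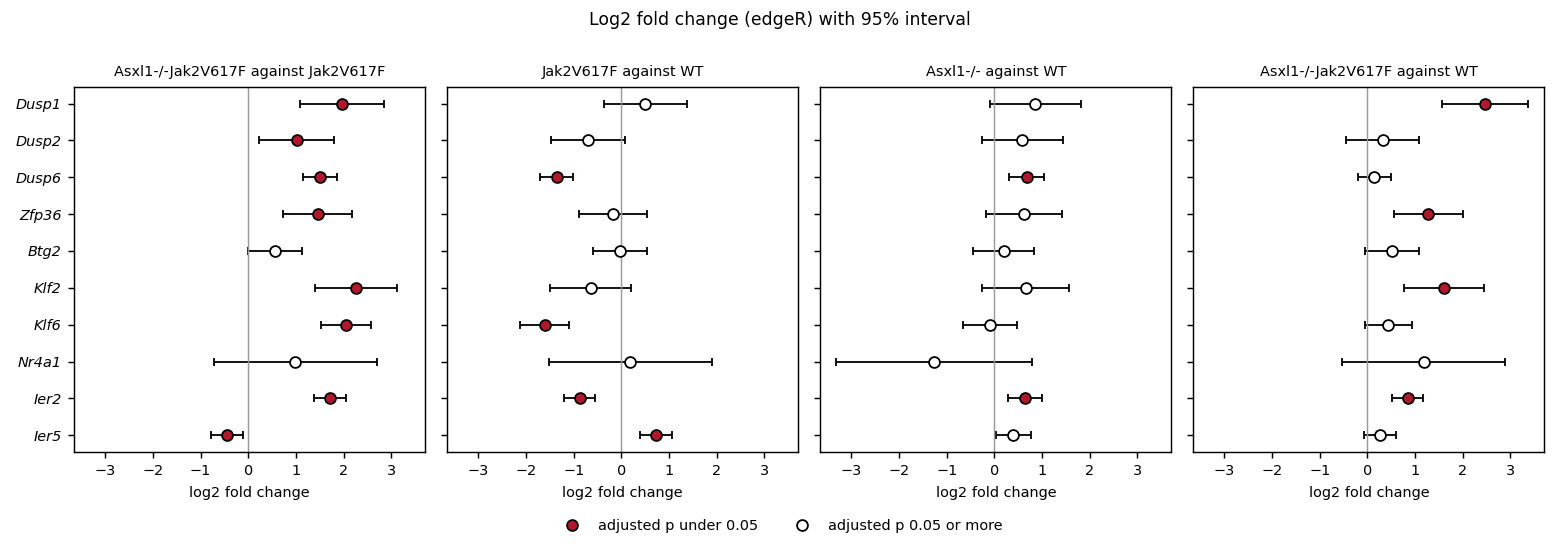
Log2 fold change of each gene in 4 comparisons of genotypes, with 95% intervals; filled points passed an adjusted p of 0.05 in edgeR. In Asxl1-/-Jak2V617F against Jak2V617F 7 genes lie to the right of 0 and pass, and Klf6, Dusp6 and Ier2 lie to the left and pass in Jak2V617F against WT.

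Jak2V617F against WT asks what the kinase mutation changed on its own. Klf6, Dusp6 and Ier2 fell and Ier5 rose, while the other 6 did not pass. The background was higher still, with 53.5% of all genes passing, 24.4% rising and 29.2% falling, so 4 of 10 is no larger a share than that. Klf6 was lower in all 3 Jak2V617F libraries than in any WT library, and it fell by 1.61 ± 0.23 as log2 (adjusted p = 0.000249). Dusp6 fell by 1.36 ± 0.16 (adjusted p = 3.09e-05) and Ier2 fell by 0.87 ± 0.15 (adjusted p = 0.000475). Ier5 rose by 0.72 ± 0.15 (adjusted p = 0.00189). These 4 were the genes whose libraries did not overlap, 1 higher and 3 lower, against 27.7% higher, 33.3% lower and 61% in either direction among all genes. Klf2 had a change of -0.64 (adjusted p = 0.177), Dusp2 -0.70 (0.119), Zfp36 -0.17 (0.671), Btg2 -0.03 (0.926), Nr4a1 0.19 (0.847) and Dusp1 0.50 (0.303). Single libraries decided some of these: Dusp1 passed at 1.14 without WT replicate 1 (adjusted p = 0.00594, range 0.00594 to 0.664), Klf2 at -1.03 without Jak2V617F replicate 2 (0.0348, range 0.0296 to 0.605) and Dusp2 at -0.94 without WT replicate 3 (0.0439, range 0.0439 to 0.76). Klf2 also passed with all libraries and a sex term (edgeR adjusted p = 0.0296). The Jak2V617F libraries serve both this comparison and the preceding one, which therefore share them, as the comparisons with WT share the WT libraries.

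Asxl1-/- against WT asks the same of Asxl1 loss alone. Dusp6 rose by 0.68 ± 0.17 (adjusted p = 0.0171) and Ier2 by 0.63 ± 0.16 (adjusted p = 0.0184), and the other 8 did not pass, where 22.5% of all genes passed, 11.3% rising and 11.2% falling. Their libraries did not overlap, nor did those of Ier5, which were higher in Asxl1-/- cells, and Nr4a1, which were lower. That is 3 higher and 1 lower, against 28.7% higher, 28.5% lower and 57.2% in either direction among all genes. Dusp1 had a change of 0.86 (adjusted p = 0.177), Klf2 0.66 (0.271), Zfp36 0.62 (0.237), Dusp2 0.59 (0.291), Ier5 0.39 (0.113), Btg2 0.19 (0.658), Klf6 -0.10 (0.818) and Nr4a1 -1.26 (0.347). Both Asxl1-/- libraries and no WT library had Y-linked reads, so sex and genotype can be told apart here only through Jak2V617F replicate 2. With a sex term neither Dusp6 (adjusted p = 0.264, range 0.00305 to 0.264) nor Ier2 (0.124, range 0.00123 to 0.124) passed. Both also missed the threshold without either Asxl1-/- replicate or without WT replicate 3, and Ier2 without WT replicate 2. Without WT replicate 1, Dusp1 passed at 1.49 (adjusted p = 0.00653, range 0.00653 to 0.535) and Dusp2 at 1.18 (0.00787, range 0.00787 to 0.893).

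Asxl1-/-Jak2V617F against WT had fewer changed genes, and here 4 of the 10 rose. Dusp1 rose by 2.48 ± 0.40 (5.57-fold, adjusted p = 0.01), Klf2 by 1.61 ± 0.37 (3.06-fold, 0.0239), Zfp36 by 1.28 ± 0.32 (2.43-fold, 0.0323) and Ier2 by 0.85 ± 0.15 (1.80-fold, 0.00854). Among all genes 8.3% rose, 6.76% fell and 15.1% changed in either direction. None of the 10 fell, and all 10 log2 fold changes were positive, from 0.15 (Dusp6) to 2.48, with a median of 0.68 over the 10 and -0.02 over all genes. Libraries did not overlap for 5, all higher, where 17.1% of all genes were higher, 19.4% lower and 36.5% either without overlap: the 4 above and Btg2, with a change of 0.52 (adjusted p = 0.184). Dusp1 and Ier2 passed under all 13 alternatives. Klf2 missed the threshold without Asxl1-/-Jak2V617F replicate 1 or 2, without WT replicate 2 or 3 and with no filter (range 3.59e-05 to 0.0917). Zfp36 did so in the same 5 cases and with the replicate block (range 0.000111 to 0.113). Dusp2 passed at 0.91 without WT replicate 1 (0.0224, range 0.0224 to 0.908).

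The Asxl1-/- cells serve as a further reference. In Asxl1-/-Jak2V617F against Asxl1-/- no gene of the 10 passed in edgeR, and 4 had an unadjusted p under 0.05, where 5.53% of all genes passed, 3.31% rising and 2.22% falling. Dusp1 was 3.07-fold higher in the Asxl1-/-Jak2V617F cells (log2 1.62 ± 0.44, adjusted p = 0.074). It passed in DESeq2 (0.0112) and in a fit of the compared groups alone (0.0173), in a range of 0.0112 to 0.446. Nr4a1 had a change of 2.44 ± 0.93 (adjusted p = 0.175) and passed in DESeq2 alone (0.0479, range 0.0479 to 0.574), which called 2 of the 10. Libraries did not overlap for Dusp1, Nr4a1, Klf2 and Klf6, all higher, nor for Dusp6, which was lower, against 21% higher, 22.8% lower and 43.8% in either direction among all genes. In Jak2V617F against Asxl1-/- cells 5 of the 10 fell and none rose, where 48.2% of all genes passed, 25.9% falling and 22.3% rising. Libraries did not overlap for 7 of the 10, with 6 lower (those 5 and Zfp36) and Nr4a1 higher, against 35.6% lower, 33.8% higher and 69.4% in either direction among all genes. Dusp6 fell by 2.04 ± 0.17 (adjusted p = 3.96e-06), Ier2 by 1.51 ± 0.16 (2.46e-05) and Klf6 by 1.51 ± 0.25 (0.000796). Klf2 fell by 1.30 ± 0.41 (0.0254) and Dusp2 by 1.28 ± 0.38 (0.0186), and both missed the threshold without Jak2V617F replicate 1 or 3 or Asxl1-/- replicate 2, with no filter and with a sex term. Zfp36 passed in DESeq2 alone at -0.75 (adjusted p = 0.0357, range 0.0357 to 0.519), Nr4a1 in a fit of the compared groups alone at 1.45 (0.045, range 0.045 to 0.483) and Btg2 without Jak2V617F replicate 2 at -0.56 (0.0495, range 0.0495 to 0.899).

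Whether Asxl1 loss did the same on both backgrounds was tested directly, as the interaction of Asxl1 loss and Jak2V617F. Its effect was more positive on the Jak2V617F background for 4 of the 10 (Klf6, Klf2, Ier2 and Dusp6) and more negative for Ier5. Of all genes, 41.6% passed this test, 23.7% in the positive and 17.9% in the negative direction. For Klf6 the difference of effects was 2.14 ± 0.35 on the log2 scale (adjusted p = 0.00113), between 2.05 on the Jak2V617F background and -0.10 on the WT background. Klf6 passed under all 17 alternatives. For Ier5 it was -0.85 ± 0.23 (adjusted p = 0.0117), between -0.45 and 0.39. Klf2 (1.60 ± 0.56, adjusted p = 0.0454) missed the threshold in 9 of 17 alternatives (range 0.00591 to 0.171). With a sex term Ier2 (adjusted p = 0.135, range 8.63e-05 to 0.135), Dusp6 (0.124, range 0.00608 to 0.124) and Ier5 (0.26, range 0.0021 to 0.26) missed it. Dusp6 also missed it without Asxl1-/- replicate 1 (0.0834) and Ier5 without Asxl1-/- replicate 2 (0.0796). Dusp1 (1.11, adjusted p = 0.153) and Zfp36 (0.84, 0.191) rose on the Jak2V617F background, but the difference from the WT background did not pass, and Dusp1 passed without WT replicate 3 (0.0214, range 0.0214 to 0.477). Nr4a1 (2.25, 0.156), Dusp2 (0.42, 0.538) and Btg2 (0.36, 0.478) did not pass either, and Btg2 passed with a sex term at 1.58 (0.0312, range 0.0312 to 0.874).

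**Figure D3:**
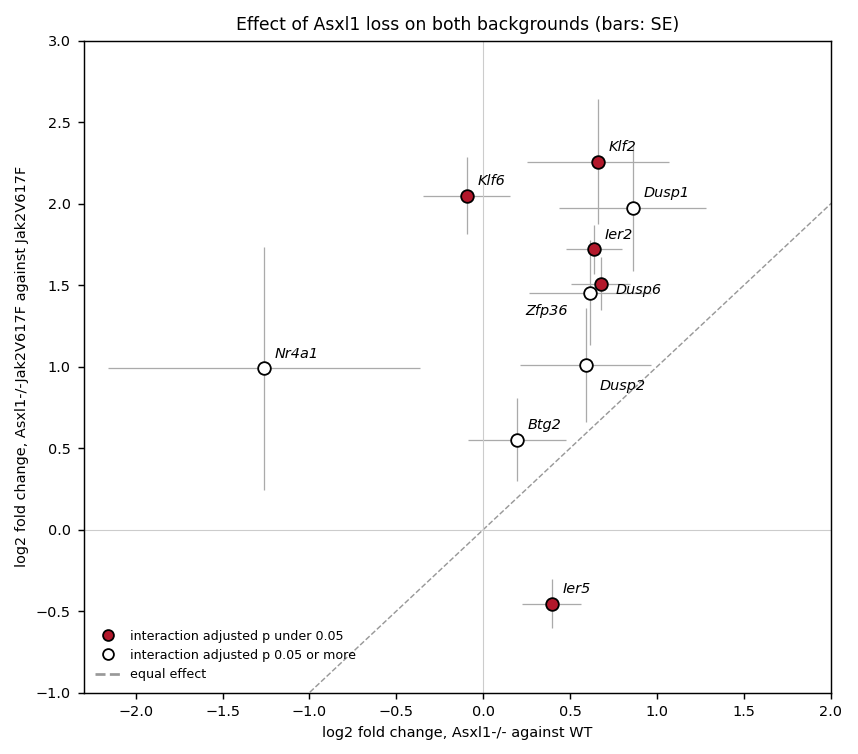
Log2 fold change with Asxl1 loss on the WT background (x axis) and on the Jak2V617F background (y axis), with SE bars; filled points passed the interaction test at an adjusted p of 0.05, and the dashed line marks equal effects. Klf6 lies at -0.10 on x and 2.05 on y, and Ier5 is the one gene below the dashed line.

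Per kilobase of deposited gene length, which allows genes to be set beside each other, Ier2 was the most abundant of the 10 in every genotype. It averaged 107 ± 10.3 FPKM in Asxl1-/-Jak2V617F, 32.6 ± 2.79 in Jak2V617F, 92.8 ± 7.60 in Asxl1-/- and 59.7 ± 14.2 in WT cells (SD). Zfp36 followed with 55.5 ± 15.8 FPKM in Asxl1-/-Jak2V617F, 20.3 ± 4.67 in Jak2V617F, 35.1 ± 12.1 in Asxl1-/- and 22.9 ± 8.47 in WT cells. The deposited length of Zfp36, 3470 bases, is its whole span, and its RefSeq start lies 1025 bases inside it. Its FPKM and its rank beside Ier2 depend on that length. Dusp1 was near Zfp36 in Asxl1-/-Jak2V617F cells, at 53.6 ± 11.4 FPKM, while it averaged 13.6 ± 1.75 FPKM in Jak2V617F, 17.5 ± 3.52 in Asxl1-/- and 9.60 ± 5.93 in WT cells. Nr4a1 was the least abundant in all but Jak2V617F cells, at 7.42 ± 7.85 FPKM in Asxl1-/-Jak2V617F, 3.73 ± 1.86 in Jak2V617F, 1.36 ± 0.30 in Asxl1-/- and 3.27 ± 1.70 in WT cells. In Jak2V617F cells the mean of Dusp6 was lower, at 3.29 ± 0.20 FPKM.

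Many of the genes deviated from their genotype means in the same libraries. WT replicate 1 was the highest WT library for 8 of the 10, all but Klf6 and Ier5, and for 39.9% of all 16262 genes tested. Asxl1-/- replicate 2 exceeded replicate 1 for all 10 and for 50.7% of all genes tested. Asxl1-/-Jak2V617F replicate 3 had the largest single deviation, 1.67 on the log2 scale for Nr4a1, while the same library was lowest of its group for Klf2 and Zfp36. Of the 45 pairs of genes, 34 had a positive Pearson r of deviations from the genotype means over the 11 libraries, with a median of 0.43 over the 45, and 11 had a negative r, the lowest that of Klf6 and Zfp36 (-0.54). These points share their libraries and are given as a description, with no value for pairs of all genes tested to set beside them. Over all 11 libraries the tested gene whose log2 CPM was most like that of Dusp1 was Fos (r = 0.94), which was also closest to Zfp36 (r = 0.93). Btg2 was closest to its paralog Btg1 (r = 0.93), Klf6 to Tank (0.97), Dusp6 to Nr1h2 (0.97), Ier2 to Erp44 (0.97), Klf2 to Chsy1 (0.93), Dusp2 to Cyth2 (0.90), Ier5 to Txnl4a (0.90) and Nr4a1 to Nkap (0.85), among 10529 genes with a mean of 5 CPM or more.

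**Figure D4:**
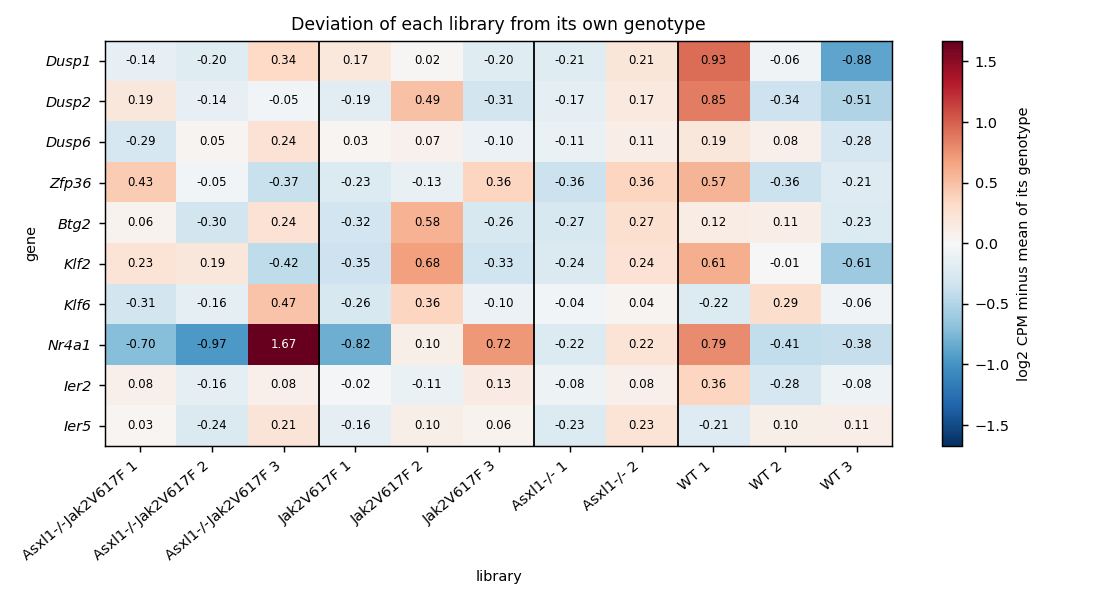
Deviation of each library from the mean of its own genotype, as log2 CPM, with genes in rows and libraries in columns. The column of WT replicate 1 is positive for 8 genes, that of Asxl1-/- replicate 2 for all 10, and Nr4a1 in Asxl1-/-Jak2V617F replicate 3 is at 1.67.

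Genes that act with these 10 were examined as lists, described by counts and medians. Among all genes 44.3% passed in Asxl1-/-Jak2V617F against Jak2V617F, 24.5% rising and 19.8% falling. Of 20 other immediate early genes, all tested, 11 rose and 1 fell in Asxl1-/-Jak2V617F against Jak2V617F, with a median log2 fold change of 1.16. Fosl2, a Fos-related partner of Jun proteins, rose by 2.32 ± 0.34, Klf4 by 2.29 ± 0.27, Nfkbiz, a nuclear IkB protein, by 1.80 ± 0.27 and Csrnp1 by 1.76 ± 0.17. The summed level of all 20 genes was 1353 to 1487 CPM in Asxl1-/-Jak2V617F libraries, 497 to 594 in Jak2V617F, 790 to 902 in Asxl1-/- and 418 to 681 in WT libraries. In Asxl1-/-Jak2V617F against WT 8 of the 20 rose and 0 fell, with a median of 0.89, where 8.3% of all genes rose and 6.76% fell. In Jak2V617F against WT 3 rose and 4 fell, where 24.4% of all genes rose and 29.2% fell. In Asxl1-/- against WT 2 rose and 0 fell, where 11.3% of all genes rose and 11.2% fell.

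The kinase cascade upstream showed mixed changes. Of 23 genes of the ERK cascade and its nuclear effectors, 10 rose and 4 fell in Asxl1-/-Jak2V617F against Jak2V617F, with a median of 0.09. Rps6ka1, the kinase RSK1 downstream of ERK, averaged 407 ± 68.5 CPM in Asxl1-/-Jak2V617F cells and 109 ± 23.1 CPM in Jak2V617F cells (log2 fold change 1.89 ± 0.16). Mapk3, which encodes ERK1, averaged 139 ± 30.0 CPM in Asxl1-/-Jak2V617F cells and 49.0 ± 7.28 CPM in Jak2V617F cells (1.50 ± 0.15), and Map2k1 and Grb2 rose by 0.68 ± 0.08 and 0.65 ± 0.07. In Asxl1-/- cells Rps6ka1 averaged 452 ± 19.0 CPM and Mapk3 191 ± 2.66. In WT cells they averaged 382 ± 28.9 and 154 ± 7.27 CPM, so both were low in Jak2V617F cells alone. Of 14 tested among 16 ERK feedback inhibitors and other dual-specificity phosphatases, 3 rose and 3 fell. That share was close to the 44.3% of all genes that passed. Spry2, an inhibitor of receptor signalling to Ras, rose by 1.84 ± 0.18, whereas its relative Spry4 fell by 1.74 ± 0.51, and the phosphatase genes Dusp16 and Dusp8 fell by 1.68 ± 0.24 and 1.60 ± 0.35. Dusp16 averaged 8.53 ± 2.53 CPM in Asxl1-/-Jak2V617F, 27.3 ± 6.68 in Jak2V617F, 6.96 ± 0.72 in Asxl1-/- and 6.90 ± 1.02 in WT cells, so it was high where Dusp6 was low. Among 18 tested of 19 close paralogs of the 10 genes, 5 rose and 3 fell, with a median of 0.03, again close to the share of all genes. Klf7 rose by 1.75 ± 0.16 and Klf5 by 0.76 ± 0.15, and Klf3, a repressor of the same family, fell by 0.52 ± 0.09.

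Partners and known targets of the proteins were also counted in Asxl1-/-Jak2V617F against Jak2V617F. Of 11 tested CCR4-NOT subunits among 12, 3 rose and 2 fell, a share close to the 44.3% of all genes that passed. All changed by small amounts: Cnot8 by 0.39 ± 0.07, Cnot6l by 0.38 ± 0.08, Cnot7 by 0.24 ± 0.07 and Cnot10 by -0.25 ± 0.07. Of 9 listed mRNAs that Zfp36 protein is known to bind or destabilise, 5 were tested and all 5 rose, with a median of 3.11. Ccl3, a chemokine, averaged 8.62 ± 1.79 CPM in Asxl1-/-Jak2V617F cells, against 0.99 ± 0.39 CPM in Jak2V617F cells (3.11 ± 0.33), and Tnf 11.4 ± 5.15 CPM in Asxl1-/-Jak2V617F cells, against 2.43 ± 0.48 CPM in Jak2V617F cells (2.23 ± 0.34). In Asxl1-/- cells Ccl3 averaged 5.41 ± 1.47 CPM and Tnf 12.7 ± 2.23. In WT cells they averaged 3.37 ± 0.52 and 10.5 ± 2.15 CPM, so Tnf was low in Jak2V617F cells alone. Cxcl2 changed by 5.39 ± 0.87 and Ptgs2 by 4.11 ± 0.74, where Jak2V617F cells held 0.58 ± 0.58 CPM of Cxcl2 and 0.61 ± 0.39 CPM of Ptgs2. In Asxl1-/-Jak2V617F against WT 4 of the 5 rose, all but Tnf, where 8.3% of all genes rose. Among genes listed as Klf2 targets, Thbd, which encodes thrombomodulin and is also expressed by myeloid cells, rose by 3.34 ± 0.22. S1pr1, a sphingosine 1-phosphate receptor gene of lymphocyte exit from tissues, fell by 0.84 ± 0.32 (adjusted p = 0.0497), and Itgb7 had a change of -0.55 (0.127).

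Levels of cell type markers differed between the genotypes beside these results. The counts in Asxl1-/-Jak2V617F against Jak2V617F stand beside 24.5% of all genes rising and 19.8% falling. Between Asxl1-/-Jak2V617F and Jak2V617F cells all 9 late neutrophil markers and all 7 primary granule markers rose, with median log2 fold changes of 2.71 and 4.35. The late neutrophil sum was 24042 to 29881 CPM in Asxl1-/-Jak2V617F, 1842 to 4946 in Jak2V617F, 51739 to 54105 in Asxl1-/- and 32927 to 49615 in WT libraries. The primary granule sum was 11628 to 21541 CPM in Asxl1-/-Jak2V617F, 718 to 1251 in Jak2V617F, 15137 to 16193 in Asxl1-/- and 10285 to 12664 in WT libraries. Monocyte and macrophage markers, of which 6 of 8 rose, summed to 3454 to 3810 CPM in Asxl1-/-Jak2V617F, 284 to 663 in Jak2V617F, 6946 to 7054 in Asxl1-/- and 4214 to 6671 in WT libraries. Erythroid markers ran the other way, with 9 of 10 falling, at 1181 to 2223 CPM in Asxl1-/-Jak2V617F, 3408 to 4514 in Jak2V617F, 1372 to 1538 in Asxl1-/- and 874 to 1456 in WT libraries. Dendritic cell and MHC class II markers, of which 6 of 7 fell, summed to 278 to 423 CPM in Asxl1-/-Jak2V617F, 2157 to 2988 in Jak2V617F, 348 to 461 in Asxl1-/- and 210 to 378 in WT libraries. No marker of these 5 lists was at 0 in any library. Among lymphocyte markers, 2 of 7 B lymphoid genes fell, and of 8 T and NK genes 5 fell and 1 rose. The summed T and NK level was 155 to 283 CPM in Asxl1-/-Jak2V617F, 26.7 to 39.6 in Jak2V617F, 240 to 242 in Asxl1-/- and 127 to 159 in WT libraries. Within that sum Nkg7 alone ranged from 14.5 to 280 CPM over the libraries. Of mast cell and basophil markers 5 of 6 rose, and of stem cell markers 3 of 7. Of 5 megakaryocyte and platelet markers tested 3 rose and 1 fell. Of 5 stroma and endothelium markers tested 4 rose, with a median log2 fold change of 3.21, and they summed to 53.4 to 73.5 CPM in Asxl1-/-Jak2V617F, 17.8 to 23.4 in Jak2V617F, 70.1 to 78.2 in Asxl1-/- and 59.7 to 67.5 in WT libraries. Most of the stroma and endothelium sum was Pecam1, which alone ranged from 16.7 to 67.8 CPM over the libraries. The other 3 genes that rose were very low in Jak2V617F cells, where Cxcl12 averaged 0.07, Col1a1 0.10 and Cdh5 0.22 CPM. The median of 3.21 therefore rests on genes with few counts in that genotype. In Asxl1-/-Jak2V617F against WT 15.1% of all genes passed. There 0 of 9 late neutrophil markers passed, 1 of 7 primary granule markers rose and 1 of 10 erythroid markers rose. Among 8 monocyte and macrophage markers 1 rose and 2 fell, of 5 megakaryocyte and platelet markers tested 2 fell, and of 8 T and NK genes 1 rose. No marker of the other lists passed. The late neutrophil sums and the monocyte and macrophage sums of Asxl1-/-Jak2V617F libraries lay below those of every WT library. So did the megakaryocyte and platelet sums, at 60.7 to 81.3 CPM in Asxl1-/-Jak2V617F and 92.9 to 109 CPM in WT libraries. The sums of the other lists overlapped. The part of these markers in the changes of the 10 genes was not tested.

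Heat shock genes, which respond to the handling of cells, gave mixed values. Of 9 tested among 10, 0 rose and 2 fell in Asxl1-/-Jak2V617F against Jak2V617F (Hspe1 by 0.78 ± 0.16 and Hspd1 by 0.61 ± 0.16, both lower), while 5 rose in Jak2V617F against WT and 2 in Asxl1-/-Jak2V617F against WT. Among all genes 24.5% rose and 19.8% fell in Asxl1-/-Jak2V617F against Jak2V617F. In Jak2V617F against WT 24.4% rose, and in Asxl1-/-Jak2V617F against WT 8.3% rose. The heat shock genes summed to 6544 to 8952 CPM in Asxl1-/-Jak2V617F, 6385 to 10939 in Jak2V617F, 6681 to 7971 in Asxl1-/- and 3519 to 5429 in WT libraries. Every library of each mutant genotype thus lay above every WT library. Most of that sum was Hspa8 and Hsp90aa1. Hspa8 averaged 3684 CPM in Asxl1-/-Jak2V617F, 3601 in Jak2V617F, 3947 in Asxl1-/- and 2338 in WT cells. Hsp90aa1 averaged 1921 CPM in Asxl1-/-Jak2V617F, 2628 in Jak2V617F, 1706 in Asxl1-/- and 1207 in WT cells. The inducible chaperone genes Hspa1a and Hspa1b, named here after their values were seen, did not pass. Hspa1b averaged 170 ± 88.0 CPM in Asxl1-/-Jak2V617F, 66.6 ± 88.7 in Jak2V617F, 115 ± 30.5 in Asxl1-/- and 44.0 ± 40.3 in WT cells (SD, n = 3, and n = 2 for Asxl1-/-), with a log2 fold change of 1.35 in Asxl1-/-Jak2V617F against Jak2V617F (adjusted p = 0.414). Hspa1a ranged over 36.7 to 108 CPM in Asxl1-/-Jak2V617F, 1.82 to 46.2 in Jak2V617F, 29.9 to 48.6 in Asxl1-/- and 0.62 to 26.6 in WT libraries, with a log2 fold change of 1.98 (adjusted p = 0.263). The pair are near-identical copies, so how reads were split between them is uncertain. The time from marrow to lysis is not given in the sources used here, and its part in the levels of the 10 genes was not tested.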

How the data were processed

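RNA-seq counts of 11 libraries in 4 genotypes were analysed. The authors deposited raw read counts per Ensembl gene, with coordinates and gene lengths, as 1 column per library. Per the submitters' processing notes, which state no roles, mm10 was the genome build and featureCounts 1.5.0-p3 and HISAT2 2.0.5 were among the tools. Neither strand setting nor annotation version is stated in the sources used here.

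Genes were filtered by filterByExpr per genotype, which left 16262. Counts were scaled by TMM and tested in edgeR 4.0.16 (R 4.3.3, limma 3.58.1) by the robust quasi-likelihood test, in 1 fit of all 11 libraries with 7 contrasts, and p-values were adjusted by Benjamini-Hochberg across those 16262 genes (threshold 0.05). The common biological coefficient of variation was 19.7% and the median prior degrees of freedom 4.64. The SE is the absolute log2 fold change over the square root of the F statistic. CPM uses TMM-scaled totals, FPKM divides CPM by the deposited gene length in kilobases, and correlations and deviations use log2 CPM with a prior count of 2. The test was checked on simulated counts.

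The 10 genes, the lists, and the tests and alternatives were chosen with earlier results of these data known. Named genes are the 10, Asxl1, Jak2 and Kit as checks, from each list up to 4 genes of smallest adjusted p in Asxl1-/-Jak2V617F against Jak2V617F, and the gene most like each of the 10. Some listed genes are not reported here. Alternatives tried were median-of-ratios scaling, DESeq2 1.42.0, no filter (1 count or more), a stricter filter (1 CPM in 3 libraries), the compared groups alone, a replicate block, a sex term (libraries with over 20 CPM on Y-linked genes) and each library left out. Chromatin data were not used here. Promoter sequences are those of RefSeq, GRCm38.p6.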

Additional observations from a re-analysis of the deposited data

Results flagged for a closer look

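The effect of Asxl1 loss differed between the Jak2V617F and WT backgrounds for 5 of the 10 genes, by the test of the interaction in edgeR, in which 41.6% of all genes passed. The difference of log2 fold changes was 2.14 for Klf6 (2.05 on the Jak2V617F background, -0.10 on the WT background), 1.60 for Klf2 (2.26 and 0.66), 1.08 for Ier2 (1.72 and 0.63), 0.83 for Dusp6 (1.51 and 0.68) and -0.85 for Ier5 (-0.45 and 0.39). Klf6 passed under all 17 alternatives. Klf2 missed the threshold with no filter and without any 1 of 8 libraries: Asxl1-/-Jak2V617F replicates 1 and 2, Jak2V617F replicates 1 and 3, both Asxl1-/- replicates and WT replicates 1 and 2 (adjusted p = 0.0454 with all libraries, range 0.00591 to 0.171). Ier2, Dusp6 and Ier5 missed it with a sex term (adjusted p = 0.135, 0.124 and 0.26, the highest of each gene's alternatives). Dusp6 also missed it without Asxl1-/- replicate 1 (0.0834, lowest 0.00608) and Ier5 without Asxl1-/- replicate 2 (0.0796, lowest 0.0021).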

How the results depend on the processing

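Each of 70 results (10 genes in 7 contrasts) was recomputed under 12 to 17 alternatives. Of 920 recomputed values, 823 kept direction and side of the threshold, 55 lost and 17 gained the call, and 25 changed sign, none of which was a called value. With a sex term, genes of the 10 that passed numbered 0 in Asxl1-/- against WT, 3 in Jak2V617F against Asxl1-/- and 3 in the interaction (Klf6, Klf2 and Btg2), against 2, 5 and 5. All genes passing then numbered 502 in Asxl1-/- against WT (3664 without the term), 52 in Asxl1-/-Jak2V617F against Asxl1-/- (899) and 3079 in the interaction (6764). In every contrast the sex term rests on Jak2V617F replicate 2, since Y-linked reads differed between libraries of 1 genotype only in Jak2V617F. It therefore cannot separate sex from other traits of that library. With no filter 2 of the 10 passed in Asxl1-/-Jak2V617F against WT and 3 in Jak2V617F against Asxl1-/-, against 4 and 5. In Asxl1-/-Jak2V617F against Asxl1-/- DESeq2 called 2 of the 10 and 1472 genes, and the compared groups alone 1 of the 10, against 0 and 899. The cause was not tested. Replicate numbers did not pair the libraries: same-numbered pairs across genotypes correlated at -0.199 to 0.174 in 15 pairs, 4 over 0.1, and 5 of 11 libraries correlated best with their own number. The replicate block gave 585 genes in Asxl1-/-Jak2V617F against Asxl1-/- and, of the 10 genes, changed the call of Zfp36 in Asxl1-/-Jak2V617F against WT (adjusted p = 0.0621).

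With 1 library left out, the 10 genes passing numbered 6 to 8 in Asxl1-/-Jak2V617F against Jak2V617F, 4 to 5 in Jak2V617F against WT, 0 to 4 in Asxl1-/- against WT, 2 to 5 in Asxl1-/-Jak2V617F against WT, 0 each time in Asxl1-/-Jak2V617F against Asxl1-/-, 3 to 6 in Jak2V617F against Asxl1-/- and 3 to 6 in the interaction. All genes passing ranged, in the same order, over 5839 to 7062, 7408 to 8608, 288 to 4376, 531 to 3493, 86 to 751, 5326 to 7246 and 4483 to 7016. Where this leaves 1 Asxl1-/- library, it is assumed to vary like the other groups.

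Changes of sign, all of uncalled values, were as follows. In Jak2V617F against WT, Btg2 was 0.019 in DESeq2, 0.019 with median-of-ratios scaling and 0.0044 with the stricter filter, and Nr4a1 was -0.029 with the replicate block. With a sex term Klf2 was -0.38, Dusp2 -0.16 and Btg2 -0.67 in Asxl1-/- against WT, Ier5 0.022 and Dusp2 0.47 in Asxl1-/-Jak2V617F against Asxl1-/-, and Btg2 0.29 in Jak2V617F against Asxl1-/-. Leaving out libraries moved Nr4a1 over -0.37 to 1.40 in Asxl1-/-Jak2V617F against Jak2V617F, -0.21 to 0.75 in Jak2V617F against WT and -0.18 to 1.73 in Asxl1-/-Jak2V617F against WT. It moved Btg2 over -0.33 to 0.14 in Jak2V617F against WT, -0.093 to 0.45 in Asxl1-/- against WT and -0.56 to 0.070 in Jak2V617F against Asxl1-/-. Zfp36 ranged over -0.37 to 0.21 in Jak2V617F against WT, Klf6 over -0.17 to 0.060 in Asxl1-/- against WT, Ier5 over -0.34 to 0.12 in Asxl1-/-Jak2V617F against Asxl1-/- and Dusp2 over -0.17 to 0.68 in the interaction.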

Other observations

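Jak2 itself averaged 92.2 ± 5.64 CPM in Asxl1-/-Jak2V617F cells, 126 ± 3.94 in Jak2V617F cells, 101 ± 2.22 in Asxl1-/- cells and 77.0 ± 5.93 in WT cells (SD, n = 3, and n = 2 for Asxl1-/-). Against Jak2V617F cells, Jak2 in Asxl1-/-Jak2V617F cells fell by 0.45 ± 0.08, as log2 (edgeR adjusted p = 0.000638) and rose by 0.26 ± 0.08 in Asxl1-/-Jak2V617F against WT (0.0448). These counts do not separate the mutant from the normal transcript.

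Fos, the gene closest to Dusp1 and Zfp36 over the libraries, averaged 273 ± 34.1 CPM in Asxl1-/-Jak2V617F, 38.0 ± 8.09 in Jak2V617F, 88.9 ± 19.6 in Asxl1-/- and 42.1 ± 30.7 CPM in WT cells. As with Dusp1, every Asxl1-/-Jak2V617F library, at 246 CPM or more, lay above every other library, the highest of which was an Asxl1-/- library at 103 CPM.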
